A study of Danio rerio with 11 samples.

Results

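The transcriptome of the wildtype zebrafish tail at 24 hours post fertilisation (hpf) was described from 5 RNA-seq libraries, taken by their labels from the 11 of the series. Each library came from a pool of 5 tails, cut behind the yolk sac. The series was made to compare lsd1 mutants (the histone demethylase gene kdm1a) with wildtype siblings in lines named 36433 and 23095, and the nature of either mutant allele was not stated. Line 36433 gave 3 wildtype pools (36433 R1, R2 and R3) and line 23095 gave 2 (23095 R1 and R2), all untreated and of the same age. The 6 mutant libraries entered none of the levels below. Separate clutches or collection days are not stated for the pools, so spreads and p-values describe these pools only.

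At this age the tail holds chevron-shaped somites of contracting muscle on either side of the notochord, the stiff rod that serves as the embryonic axis, with the spinal cord above it. A thin epidermis, drawn out into a fin fold, covers the tail. The tailbud at its tip still adds mesoderm, and blood cells form and begin to circulate in the vessels beneath the notochord. In bulk RNA from whole tails, a change in the number of cells of a type and a change in RNA per cell cannot be told apart.

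The 5 libraries held 14785707, 15234507, 16649352, 17195875 and 15329063 counts (36433 R1, R2, R3, then 23095 R1, R2, the order used for all values below). Levels are CPM, a gene's count as a share of its library's total (10000 CPM is 1% of counts before scaling), scaled between pools by the trimmed mean of M-values (TMM). Percentages given for a list or family are scaled CPM read at 10000 to 1%. Those of the 10 most abundant identifiers and of titin are of unscaled counts. Of 23617 gene identifiers, 16674 (70.6%) reached 1 CPM in all 5 pools, 9305 reached 10 CPM, 1183 reached 100 CPM and 60 reached 1000 CPM. The gene kdm1a itself (listed as KDM1A) stood at 157, 150.7, 132, 119.5 and 137 CPM. The pools were not alike: 36433 R1 stood apart from the other pools of its line, with a median absolute difference per gene of 0.30 on the log2 scale from both R2 and R3, which differed from each other by 0.15. It lay nearer to the pools of the other line, at 0.26 from 23095 R1 and 0.22 from 23095 R2. The pools 23095 R1 and R2 differed by 0.17. Results that rest on 36433 R1 are marked as such below.

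Muscle genes led by mean level over the 5 pools, though not in every pool. The 10 most abundant identifiers took 14.2, 13.5, 14.7, 19.2 and 17.4% of the counts, and 5 of the 10 by mean level were genes of the contractile apparatus and its calcium supply. Titin, the giant spring protein of the sarcomere, came first: its 2 identifiers (both TTN) together held 5.99, 2.31, 3.27, 8.11 and 7.80% of all counts. Their counts kept a ratio of 1.04 to 1.08 in every pool, and how reads were split between near-identical copies is uncertain. In 36433 R2 and R3 the keratin krt4 (31741 and 28853 CPM) stood above either titin identifier (11921 and 17518 CPM for the higher). Titin transcripts are very long, and a long transcript yields more fragments per molecule. No transcript lengths were used here, so the order of genes is one of share of counts, not of molecules.

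Other muscle genes among the 30 most abundant were myhz1.3, a fast myosin heavy chain, at 6435, 3906, 7283, 14099.8 and 11039.9 CPM, and atp2a1, the calcium pump of the sarcoplasmic reticulum, at 6510.4, 4366, 7295, 11785 and 10475 CPM. The sarcomeric actin actc1b was at 5294, 5097, 7394, 10557 and 8953 CPM. All 3 were lowest in 36433 R2 and highest in 23095 R1, and the lines did not overlap. The list went on with smyhc1, the myosin heavy chain of slow fibres (4198 ± 952 CPM, mean ± SD over the 5 pools), the fast myosin myhz1.1 (3912 ± 2476), NEB, or nebulin, the ruler of the thin filament (3454 ± 1264), MYL11, a fast myosin light chain (3207 ± 1025), and the muscle creatine kinases ckmb (2656 ± 819) and ckma (2467 ± 677).

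Genes listed for skin and yolk came next. The epidermal keratin krt4 was at 13672, 31741, 28853, 18705 and 16512 CPM, highest in 36433 R2 and R3. The keratins cyt1 (3083 ± 1012 CPM) and cyt1l (2411 ± 1065 CPM) were also among the 30. Apolipoprotein B, which packs yolk lipid into particles, was represented by apobb.1 at 11253, 18978, 17991, 14544 and 8465 CPM and by another identifier, APOB, at 1942, 3438, 3376, 2892 and 1640.2 CPM. Both were lowest in 23095 R2, and highest in 36433 R2. The remaining protein genes were the elongation factors eef1a1l1 and eef2b, the heat shock cognate HSPA8, the cytoskeletal actins actb1 and actb2, the ribosomal protein RPLP0, the scaffold gene ahnak, the mitochondrial MT-CO1 and COL2A1, the collagen of the notochord and its sheath.

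**Figure D1:**
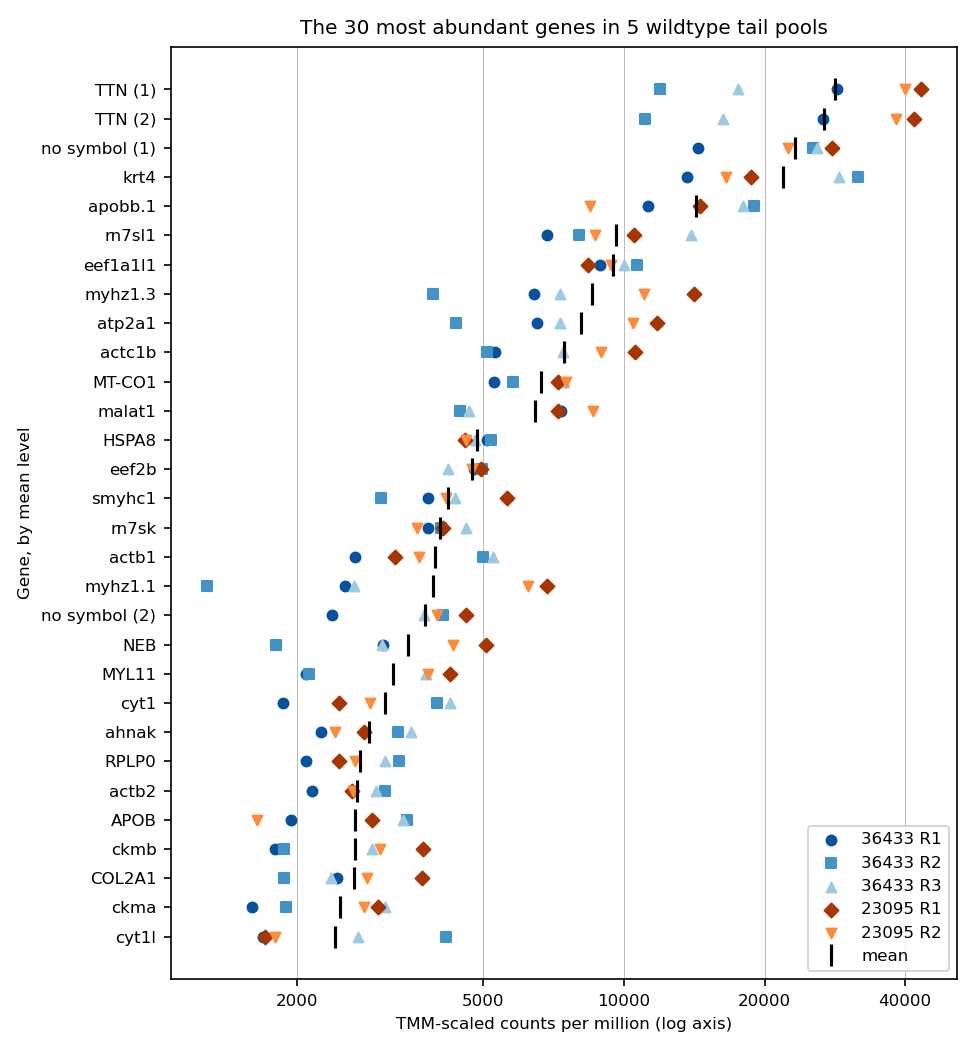
Level of the 30 most abundant identifiers in each wildtype pool, as TMM-scaled CPM on a log axis, ordered by mean. Points are pools and black ticks are means. Muscle genes such as myhz1.1 (1280.5 to 6851 CPM) spread more widely than the elongation factor eef2b (4204 to 4967 CPM), and numbers in brackets tell apart identifiers that share a name.

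The library kit removed ribosomal RNA and did not select polyadenylated RNA, so RNAs that are not translated were retained. Among those with a symbol, the most abundant was rn7sl1, the RNA of the signal recognition particle, at 6839, 8027, 13916, 10526 and 8685 CPM. The nuclear RNA malat1 was at 7326, 4451, 4669, 7241 and 8608 CPM, and rn7sk, which holds back the elongation kinase P-TEFb, was at 3800.2, 4067, 4605, 4100.2 and 3610.1 CPM. Pool 36433 R3 was highest for rn7sl1 and rn7sk, while malat1 was lower in 36433 R2 and R3 than in the other 3 pools. The next were linc-epb41l4a (242 ± 30.5 CPM), oip5-as1 (146 ± 15.9), the RNA of RNase MRP rmrp (117 ± 26.9), the snoRNA host gas5 (116 ± 37.2), the RNA of RNase P rpph1 (66.3 ± 11.4) and the unnamed si:dkey-16p21.8 (62.3 ± 21.6) and si:dkey-23i12.5 (60.9 ± 7.90). Of these gas5 was higher in both 23095 pools, at 93.3, 94.0, 82.6, 143 and 168 CPM. In addition 2 identifiers without a symbol stood among the 30 most abundant, ENSDARG00000080337 at 23216 ± 5287 CPM and ENSDARG00000082753 at 3755 ± 830.3 CPM. The tables of gene names used here do not say whether these are translated.

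Protein-making genes held a large share of counts. The 82 identifiers of cytosolic ribosomal proteins, a family picked after the values were seen, summed to 51601, 74041, 74453, 51422 and 60994 CPM, a mean of 6.25% of counts. This sum was low in 36433 R1 and 23095 R1 and high in 36433 R2 and R3. The 11 identifiers with a mitochondrial (MT-) symbol, which need not be every protein gene of that genome, summed to a mean of 1.55%.

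Marker lists were then summed in each pool to see which tissues the tail RNA stood for. Of 27 lists, 15 reached a sum of 1000 CPM in every pool. Those 15 included the lists for muscle, epidermis, fin fold, notochord, sclerotome, spinal cord, vessels, red blood cells, tailbud, ionocytes and pronephros. The list for the yolk syncytial layer and liver was among them too. The labels place the cut behind the yolk sac and do not say whether any of this layer stayed with the tails. The lists for brain, heart, eye and ear had low sums, and so had some lists for cells of the tail, such as myeloid cells and floor plate. A gene could stand in more than 1 list (col1a1a in both fin fold and sclerotome), so the sums are not parts of a whole.

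**Figure D2:**
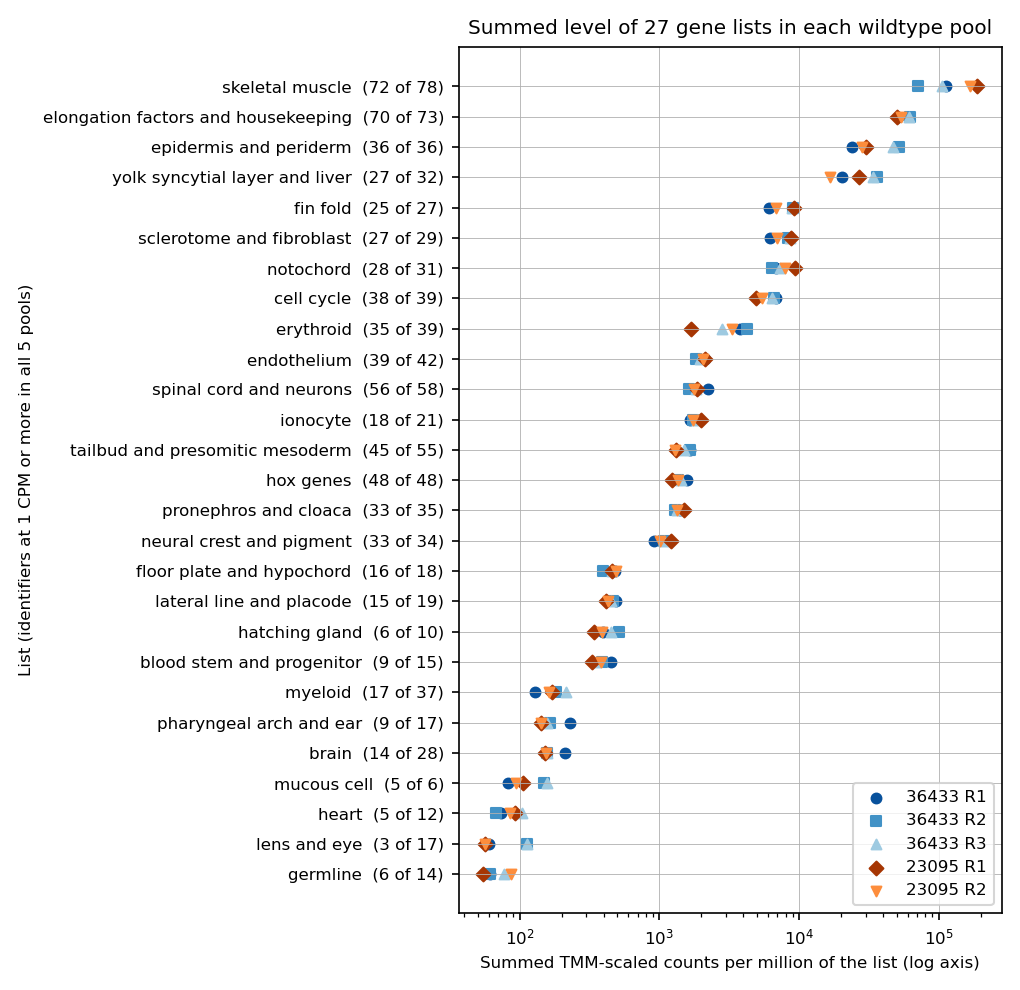
Summed TMM-scaled CPM of each of 27 gene lists in each wildtype pool, on a log axis, with the number of identifiers at 1 CPM or more in all 5 pools in brackets. The muscle list spans 70788 to 188954 CPM, and the lists for brain, heart, eye, ear and germline lie at or below 231 CPM.

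Skeletal muscle. The muscle list summed to 112109, 70788, 106402, 188954 and 168063 CPM, so that its share of counts ran from 7.08 to 18.9%, and 72 of its 78 identifiers reached 1 CPM in all pools. In 36433 R2 the ribosomal protein genes summed to more than this list, at 74041 CPM. The list was lowest in 36433 R2 and highest in 23095 R1. Among its 70 identifiers with a mean of at least 10 CPM, the highest pool was 23095 R1 for 41 and the lowest was 36433 R2 for 37. The lines did not overlap for 45 of the 70, of which 44 were higher in line 23095. Over all 10564 genes at that level, the lines did not overlap for 31.9%, with 13.3% higher and 18.6% lower in 23095 (9.16% and 24.4% when scaled by library totals alone).

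The muscle genes did not move as a block. The fast myosins myhz1.1 (SD of log2 CPM between pools 1.01) and myhz1.2 (0.82) and the parvalbumins pvalb1 (0.89) and pvalb2 (0.85), which buffer calcium in fast fibres, spread widely. The slow myosin smyhc1 spread less (0.33), and hsp90aa1.1, the chaperone that folds myosin, hardly at all (0.11), at 1323, 1179, 1070.4, 1194 and 1184 CPM. The regulators that set muscle fate were low and fairly even: MYOD1 was at 108, 94.0, 84.9, 95.4 and 109 CPM, MYF5 at 11.5 ± 1.49 CPM and MYF6 at 8.78 ± 1.64 CPM. MYOG, which drives fusion and differentiation, was at 109.6, 122, 89.2, 56.6 and 95.6 CPM and lowest in 23095 R1, the pool with the most muscle structural RNA. The 1 muscle gene lower in line 23095 without overlap was actc1a, a sarcomeric actin, at 917, 899, 928, 532 and 752 CPM.

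Pool 36433 R1 differed from R3 within the list. Titin was higher in R1 (28543 against 17518 CPM for the first identifier) and nebulin was level (3057 against 3037 CPM). MYL11 (2087 against 3769 CPM) and ckma (1599 against 3089 CPM) were lower in R1. The mitochondrial ADP/ATP carrier SLC25A4, which is not in the list, was lower in R1 too (17.5 against 83.1 CPM). Summed muscle level was thus close in these pools, 112109 and 106402 CPM, while the median member was 0.31 below its own mean in R1 and 0.05 above it in R3.

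Epidermis, fin fold and yolk. All 36 epidermal identifiers reached 1 CPM. Their sum was 24052, 51660.0, 46894, 30322 and 28384 CPM, more than in the other pools in 36433 R2 and R3, and least in 36433 R1. Of 34 members with a mean of at least 10 CPM, 20 were highest in 36433 R2 and 14 in 36433 R3. Besides the keratins named above, the list held a further keratin, krt8 (1436 ± 245 CPM), and the plakin PPL (1028 ± 325 CPM). It also held the adhesion genes cdh1 (403 ± 104 CPM) and epcam (364 ± 113 CPM), and TP63 (62.7 ± 17.99 CPM), the regulator of basal epidermis. The spread was widest for icn (SD 0.86) and icn2 (0.95), S100-type genes of the skin.

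The fin fold list summed to 6118, 9008, 8860.0, 9254 and 6832 CPM, led by the fibrillar collagens col1a1a (1522, 2247, 2272, 2702 and 1643 CPM), COL1A2 (1346 ± 229 CPM) and COL1A1 (1056 ± 264 CPM) and by fras1 (743 ± 83.9 CPM), whose protein anchors the fold's epithelium. The actinodins and1 and and2 build the actinotrichia, the stiff fibrils of the fin fold. and1 was at 23.0, 76.4, 126, 116 and 67.2 CPM and and2 at 7.24, 27.5, 47.1, 42.1 and 29.6 CPM, both lowest in 36433 R1 and highest in 36433 R3. The transcription factors of the distal fold were lower: SP9 was at 37.8 ± 15.8 CPM, msx1b at 37.7 ± 8.47 CPM and DLX5 at 20.9 ± 9.17 CPM, and all 3 were lowest in 23095 R1.

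RNA of genes listed for the yolk syncytial layer, the tissue that digests yolk, was plentiful although the tails were labelled as posterior to the yolk sac. Whether this RNA came from that layer was not tested. The list of yolk and liver genes summed to 20235, 36319.7, 34063, 27022 and 16653 CPM, and 27 of 32 identifiers reached 1 CPM. After the apolipoproteins B, it held apoeb (1426, 2735, 2557, 1710.2 and 1205 CPM), apoa1b (1087, 2053, 1855, 1948 and 1007 CPM) and apoa1a (1356 ± 478 CPM), and transferrin tfa (933 ± 336 CPM). Of 26 members at 10 CPM or more, 17 were highest in 36433 R2 and 15 were lowest in 23095 R2. The liver marker fabp10a was near 0 (0.1 ± 0.0705 CPM).

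Notochord and connective tissue. The notochord list summed to 6799, 6449, 7279, 9278 and 7877 CPM. COL2A1, whose symbol 2 identifiers share, led it with 2431, 1875, 2366, 3701 and 2827 CPM for the higher one, followed by the laminin chain lamc1 (659 ± 48.4 CPM) and matrilin MATN4 (380.4, 494, 604, 777 and 683 CPM). MATN4 and the higher COL2A1 were higher in line 23095 without overlap. The minor collagens col9a1b (477 ± 120.0 CPM) and COL9A2 (291 ± 55.5 CPM) also stood there, with the regulator tbxta at 51.5, 51.7, 60.3, 54.5 and 48.8 CPM and even in all pools. The sclerotome list, for the cells that form tendon and skeleton, summed to 6177, 8356, 8602, 8742 and 6933 CPM, with POSTN (1025 ± 266 CPM) and COL5A1 (736 ± 152 CPM) after the type I collagens. The 3 type I collagen genes were lowest in 36433 R1, next lowest in 23095 R2 and highest in 23095 R1.

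Blood and vessels. Red cell genes varied most: the erythroid list had the largest median SD of log2 CPM of the 27 lists, 0.79, against 0.23 for all genes with a mean of at least 10 CPM. It summed to 3794, 4263, 2807, 1673 and 3322 CPM. The embryonic globins hbbe3 and hbae3 were at 482, 630.1, 360.4, 80.6 and 439 and 466, 572, 387, 102 and 454 CPM, and the haem synthesis enzyme alas2 at 88.8, 77.9, 35.0, 15.8 and 63.9 CPM. Of the 30 members at 10 CPM or more, 24 were lowest in 23095 R1, and the median member lay 1.13 below its mean there (log2 CPM). The other 23095 pool did not share this, with hbbe3 at 439 CPM. Outside the haem and globin genes, SPTB, the spectrin of the membrane skeleton, ran the other way, at 368, 246, 307, 510.5 and 477 CPM. The erythroid regulators klf17 (24.2, 20.9, 10.8, 2.87 and 13.3 CPM), gata1a (7.92, 4.18, 2.74, 0.853 and 5.43 CPM) and TAL1 (38.6, 32.6, 16.4, 11.2 and 24.4 CPM) were lowest in 23095 R1 as well.

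The vessel list was among the most even. It summed to 2105, 1819, 1939, 2129.9 and 2068 CPM, a 1.17-fold range. Among its highest members were 2 identifiers named NOTCH1 (263 ± 26.9 and 207 ± 36.2 CPM), which stood in the spinal cord list too. The sum is thus not one of vessel genes alone. Other members were the scavenger receptor stab2 (253 ± 31.9 CPM), the junction gene cdh5 (87.0 ± 11.1 CPM), the VEGF receptor kdrl (68.5 ± 10.3 CPM) and the endothelial regulator etsrp (21.4 ± 2.57 CPM). White cell genes were scarce: 17 of 37 myeloid identifiers reached 1 CPM in all pools, and the list summed to 128, 182, 213, 171 and 163 CPM. Its highest members were CEBPB (27.7 ± 6.82 CPM), CEBPA (24.9 ± 3.99 CPM) and nccrp1 (21.7 ± 9.31 CPM), each lowest in 36433 R1 as the epidermal sum was. Whether their RNA came from white cells was not tested. The macrophage receptor csf1ra, which stood in the pigment list too, was at 6.68, 6.599, 10.1, 17.5 and 10.0 CPM. The neutrophil lysozyme lyz was at 0.312, 2.35, 6.84, 1.28 and 1.44 CPM. Blood stem cell genes differed in level: RUNX1 was at 0.569 ± 0.0979 CPM, GFI1 at 0.901 ± 0.437 CPM and MYB at 17.4 ± 3.66 CPM. Higher were cd34 (76.4 ± 7.69 CPM) and FLI1 (27.9 ± 2.74 CPM), which stood in the vessel list too. The list sum of 453, 389.8, 349, 329 and 379 CPM was mostly MEIS1 (199 ± 22.1 CPM), a gene of many tissues.

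Nervous system, neural crest and epithelia. The spinal cord list summed to 2246, 1638, 1819.7, 1858 and 1765 CPM and was highest in 36433 R1, which was also the highest pool for 24 of 35 members. It held the radial glia gene GFAP (142 ± 13.4 CPM), the progenitor genes sox19a (106 ± 22.9 CPM) and SOX3 (73.5 ± 11.7 CPM), and the neuronal RNA-binding gene ELAVL3 at 129, 53.6, 76.5, 109 and 102 CPM. The neural crest and pigment list summed to 919, 1074, 1081, 1220.1 and 1014 CPM. It was led by gch2, the pteridine pigment enzyme, at 82.7, 189.5, 218, 264 and 200.3 CPM, lowest in 36433 R1, while the crest regulators FOXD3 (44.6 ± 9.09 CPM) and SOX10 (29.8 ± 3.64 CPM) were lower in level and more even. Ionocyte genes summed to 1652, 1743, 1846, 1991 and 1735 CPM and pronephros genes to 1405, 1283, 1329.8, 1508 and 1345 CPM, both led by the sodium pump subunit atp1a1a.4 (378 ± 29.3 CPM) and both within a 1.21-fold range over pools. CDH17, a cadherin of the pronephric duct, was at 159, 149, 174, 169 and 147 CPM. In the lateral line list (489, 467, 451, 416 and 432 CPM), cldnb was at 70.7, 127, 94.8, 63.0 and 65.8 CPM and highest in 36433 R2. The floor plate list summed to 477, 396, 458, 458 and 488 CPM, with SHH at 37.1, 29.6, 34.1, 41.4 and 44.1 CPM for the higher of its 2 identifiers.

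Tailbud and dividing cells. The tailbud and presomitic mesoderm list summed to 1643, 1654, 1488, 1323 and 1290.0 CPM, and 45 of its 55 identifiers reached 1 CPM. Its highest members were 2 identifiers named FN1 (283 ± 30.9 and 260 ± 43.7 CPM), and whether their RNA came from the tailbud was not tested. Of 27 members with a mean of at least 10 CPM, the lines did not overlap for 14, and 13 of these were lower in 23095. Over all genes at that level, 31.9% did not overlap and 18.6% were lower in 23095 without overlap (24.4% by library totals alone). The widest gaps were those of msgn1, a regulator of presomitic mesoderm, at 15.2, 19.2, 9.20, 1.83 and 5.17 CPM, and pcdh8, the paraxial protocadherin, at 83.7, 86.4, 57.8, 12.2 and 39.3 CPM. tbx16 was at 16.6, 15.03, 9.08, 5.49 and 5.70 CPM and cdx4 at 30.4, 29.99, 22.1, 9.94 and 18.2 CPM. In all 4 genes 23095 R1 was lowest and 23095 R2 next. Other members were even, among them AXIN2, a Wnt target, at 89.2, 69.3, 84.2, 91.0 and 82.9 CPM and WNT5B at 42.4, 49.7, 52.2, 42.7 and 37.5 CPM. The segmentation clock genes her1 (6.43, 5.62, 2.92, 0.61 and 2.95 CPM) and her7 (2.43, 2.74, 1.80, 0.366 and 0.786 CPM) were low in all pools.

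Cell cycle genes lay on the same side. Their sum was 6834, 6615, 6407, 4943 and 5448 CPM, and for 28 of 38 members with a mean of at least 10 CPM the lines did not overlap, all 28 with line 23095 lower, where the share over all genes was 18.6% (24.4% by library totals alone). mki67, the proliferation marker, was at 602, 482, 501, 365 and 418 CPM, PCNA, the replication clamp, at 377, 389, 362, 328 and 311 CPM and TOP2A at 392, 365, 372, 267 and 285 CPM. The sizes were small, with a median SD of 0.25. The line and the tissue content of these few pools cannot be told apart.

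**Figure D3:**
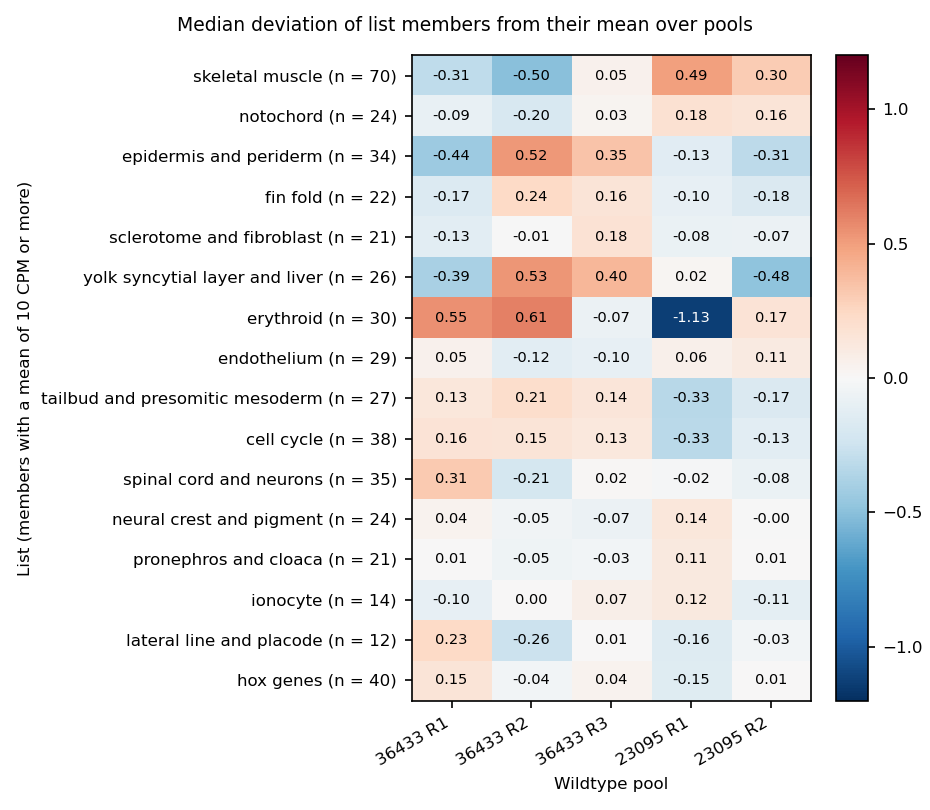
Median deviation of list members from their own mean over the 5 pools (log2 CPM, colour and printed value), for members with a mean of at least 10 CPM. Muscle is low in 36433 R1 and R2 and high in both 23095 pools, epidermis and yolk are high in 36433 R2 and R3, and erythroid genes are low in 23095 R1 (-1.13).

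The lists for brain, ear, heart and eye, organs ahead of the cut, had low sums. The brain list summed to 211, 157, 156, 150.9 and 154 CPM with 14 of 28 identifiers at 1 CPM in all pools, and its forebrain gene TBR1 was near 0 (0.176 ± 0.0765 CPM). The pharyngeal arch and ear list summed to 231, 165, 157, 142 and 141 CPM. In it stm, or starmaker, a gene of the ear's otoliths, was at 41.7, 13.9, 12.003, 10.18 and 15.3 CPM, highest in 36433 R1. Of the list's 4 members with a mean of at least 10 CPM, 3 were highest in 36433 R1 and 1 in 36433 R2. The highest member, oc90, was at 53.2, 45.5, 44.0, 42.4 and 38.0 CPM. DLX3 was highest in 36433 R2, at 23.0, 44.6, 37.7, 22.1 and 21.5 CPM. Heart genes summed to 73.8, 68.0, 104, 92.7 and 84.4 CPM, mostly tnni1c (51.7 ± 12.6 CPM), while the chamber genes myh6 (0.828 ± 0.589 CPM) and TNNT2 (0.343 ± 0.214 CPM) and the regulator NKX2-5 (0.138 ± 0.173 CPM) were near 0. The lens and eye list (60.3, 112, 113, 56.7 and 56.6 CPM) was mostly RPE65, whose symbol 3 identifiers share. Germline genes summed to 61.6, 61.5, 76.5, 54.9 and 86.5 CPM with DDX4, or vasa, at 1.996, 1.57, 2.43, 2.13 and 3.99 CPM. Hatching gland genes were mostly the widely used XBP1 (262 ± 44.1 CPM), with the hatching enzyme he1.3 at 91.1, 81.6, 36.6, 36.1 and 56.0 CPM. The mucous cell list, for a cell type of the skin, summed to 82.7, 148, 156, 105 and 94.7 CPM.

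Hox genes encode the transcription factors that give positions along the body axis their identity, and those of higher paralog number are used further back. All 48 hox identifiers reached 1 CPM in all 5 pools, including those of group 1. The posterior genes were present throughout: HOXB9 was at 108, 141, 142, 103 and 118 CPM, hoxb10a at 33.3, 44.5, 43.0, 29.3 and 37.9 CPM, hoxa13a at 9.42, 14.6, 11.8, 6.40 and 8.77 CPM and hoxd13a at 7.74, 12.2, 9.89, 2.87 and 6.22 CPM. The group 13 genes, which mark the tail tip, were higher in 36433 R2 and R3 than in the other 3 pools as a sum (67.6, 108, 111, 57.9 and 70.4 CPM).

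In pool 36433 R1 the anterior hox genes were high, and the posterior ones were low against the other pools of its line only. Groups 1 to 8 summed to 1047, 666, 713, 711 and 766 CPM and groups 9 to 13 to 537, 697, 706, 525 and 593 CPM, so the ratio of the first to the second was 1.95, 0.956, 1.01, 1.35 and 1.29. The posterior sum in 36433 R1 lay between those of the 23095 pools. In 36433 R1, 24 of 25 genes of groups 1 to 8 were at their highest of the 5 pools (HOXB7 was the exception), against 2 of 23 genes of groups 9 to 13. Of those 23, 19 were below both other 36433 pools. The split after group 8 was placed with the values in view. Group sums in 36433 R1 were 2.29 times the mean of R2 and R3 for group 4, 2.09 times for group 5, 1.204 times for group 8, 0.795 times for group 9 and 0.616 times for group 13. Single genes show the range: HOXB4 was at 32.1, 10.0, 13.1, 19.5 and 23.1 CPM, HOXB3 at 145, 59.0, 71.1, 89.7 and 80.1 CPM and hoxb1a at 5.99, 1.31, 1.49, 2.499 and 1.90 CPM, while HOXD3 was level at 38.4, 33.3, 34.6, 34.0 and 32.5 CPM.

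The other hox genes followed these groups. In groups 1 to 3, hoxb1b (33.0 ± 6.12 CPM), hoxc1a (58.7 ± 14.5), HOXB2 (8.20 ± 4.15), hoxa2b (10.3 ± 0.743), HOXA3 (94.4 ± 16.4) and hoxc3a (102 ± 15.11) were measured. In groups 4 to 8 the remaining genes had means from 11.2 CPM (HOXA5) to 55.8 CPM (HOXB8). In groups 9 to 12 they ran from 9.36 CPM (hoxc11b) to 38.2 CPM (HOXC9), and in group 13 from 8.41 CPM (hoxa13b) to 32.4 CPM (the higher HOXC13 identifier). The symbols HOXB5, HOXC6, HOXA11, HOXC12 and HOXC13 are each carried by 2 identifiers.

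The brain, ear and spinal cord lists were highest in 36433 R1 too, at 211, 231 and 2246 CPM. The part that more anterior tissue in this pool plays in its values was not tested.

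**Figure D4:**
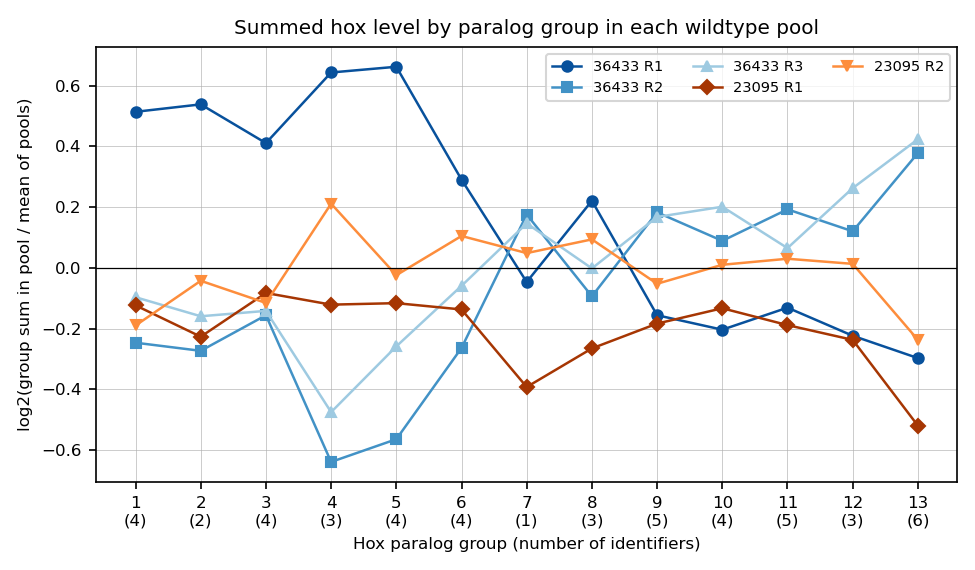
Summed level of each hox paralog group in each wildtype pool, as log2 of the ratio to the mean of the 5 pools. Pool 36433 R1 lies above the others for groups 1 to 6 and group 8 and below 36433 R2 and R3 for group 7 and groups 9 to 13, and 23095 R1 is lowest for group 13.

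The spread between pools was measured as the SD of log2 CPM over the 5 pools, for the 10564 genes with a mean of at least 10 CPM. Its median was 0.23, and its 5th and 95th percentiles were 0.090 and 0.56. Within lines the median SD was 0.21, and counting error alone would give 0.066, so 83.2% of genes had an SD over 2 times their counting error. An SD above 1 was found in 64 genes (0.606%) and one above 2 in 10 genes. The share of a gene's variance that lay between the lines had a median of 28.1%. This share was not corrected for the small number of pools. Part of it arises even where the lines do not differ, so no line effect is read from it.

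**Figure D5:**
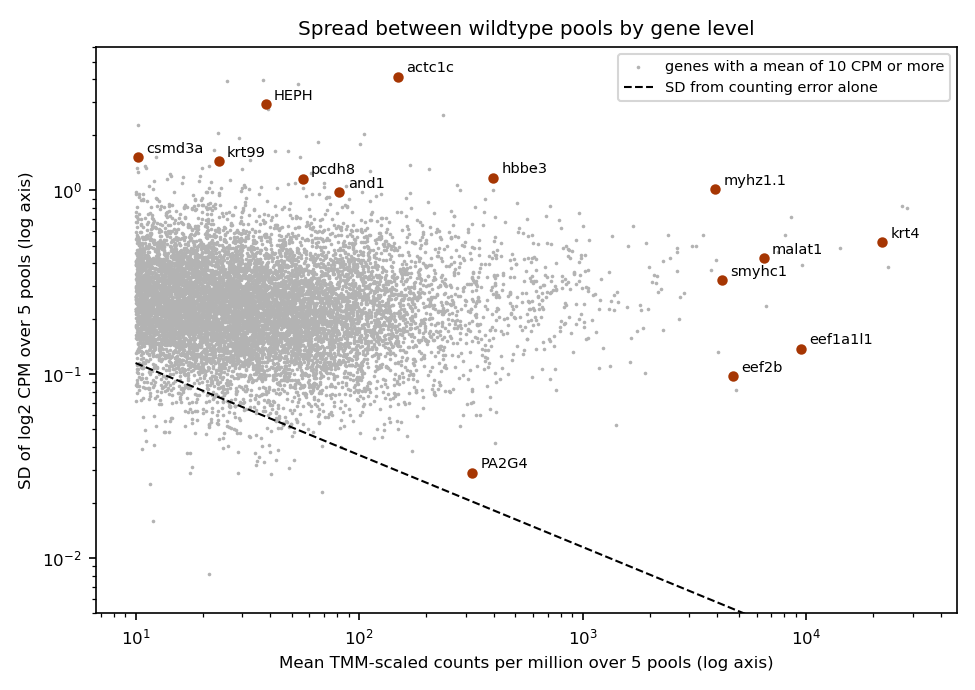
SD of log2 CPM over the 5 pools against mean level, both on log axes, for genes with a mean of 10 CPM or more; the dashed line is the SD from counting error alone. Most genes lie above the line, actc1c lies highest (4.14), and PA2G4 lies near the line (0.029).

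Of the 20 genes with the widest spread, 7 were copies named Metazoa_SRP, 4 had no symbol and 4 carried clone names. The Metazoa_SRP identifiers, 68 in all, resemble the signal recognition particle RNA, and reads of such repeated sequence are placed with uncertainty. The clone name zgc:158463 is listed as a ribosomal RNA by RefSeq. It was at 0.749, 8.36, 148, 32.3 and 5.89 CPM, and the unnamed ENSDARG00000115978 was at 8.42, 67.2, 972, 111 and 25.7 CPM and ENSDARG00000115988 at 7.42, 52.5, 365, 71.0 and 31.03 CPM. All 3 were highest in 36433 R3 and lowest in 36433 R1. The remaining named genes of the 20 were actc1c, HEPH, csmd3a, LOXL2 and 1 of 2 XIRP2 identifiers, and the clone-named zgc:158846 (5.93, 68.2, 78.3, 70.0 and 18.13 CPM).

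The widest spread of any gene was that of actc1c, an actin: 1.87, 1.70, 1.62, 517 and 225 CPM. It was close to the limit of measurement in line 36433 and a mid-level gene in both 23095 pools. The neighbours in the ranking, si:ch73-65n21.2 (1.37, 0.392, 0.249, 92.1 and 92.6 CPM) and si:ch73-65n21.1 (0.561, 0.261, 0.249, 59.8 and 67.6 CPM), split the same way. HEPH, known in mammals as hephaestin, a copper-dependent iron oxidase, behaved otherwise, at 35.5, 101, 19.5, 34.1 and 0.393 CPM, nearly absent from 23095 R2 alone. csmd3a was at 3.49, 2.35, 3.67, 7.01 and 34.7 CPM, high in that same pool. The second XIRP2 identifier, for a muscle actin-binding repeat protein, was at 22.1, 9.28, 29.98, 127 and 84.2 CPM, and LOXL2, a collagen crosslinking enzyme, at 8.80, 7.19, 29.7, 55.9 and 61.6 CPM.

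A longer list was drawn up after the values were seen, of the 30 most variable genes with a symbol of their own and no clone name. Erythroid genes made up a good part of it: hbbe3, hbae3, hbae1.3, alas2, cahz, epb41b, klf17 and blf, the last a zinc finger gene of early blood at 40.6, 29.9, 10.8, 7.99 and 31.03 CPM. Fin fold (and1, and2), muscle (myhz1.1, atp2a1l, cand2, asb2a.1) and presomitic mesoderm genes (msgn1, pcdh8) followed. RYR3, a calcium release channel, was at 158, 82.6, 208, 505 and 415 CPM. The keratin krt99 was at 35.4, 37.5, 32.2, 4.08 and 8.51 CPM. Others were MT1X, a metallothionein, at 16.7, 72.5, 120.1, 88.6 and 51.5 CPM, aep1 at 77.3, 306, 429, 385 and 219.8 CPM, the ammonium transporter RHBG at 35.1, 36.3, 17.4, 10.9 and 7.005 CPM and the cathepsin ctsll at 44.2, 53.4, 83.6, 15.9 and 17.9 CPM. The pools of the lines did not overlap for 13 of the 30, 7 of them higher in 23095 and 6 lower. Over all genes with a mean of at least 10 CPM the share was 31.9%, and since the 30 were chosen for their spread, nothing is read from the count.

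The most even gene at 100 CPM or more was PA2G4, a growth-regulated RNA-binding protein, at 329, 323, 323, 311 and 320.4 CPM (SD 0.029). After it came ddx61, CCT6B, a chaperonin subunit, RAB10, csnk1da, SUPT6H, a transcription elongation factor, LYPLA2, usp4, FLII and NR2F6, with SDs from 0.038 to 0.051. Genes often used as references were less even than these, which were chosen for evenness. actb1 had an SD of 0.42 and GAPDH one of 0.48, above the median of 0.23 for genes with a mean of at least 10 CPM. The SDs of eef1a1l1 (0.14) and actb2 (0.20) were below that median.

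How many single genes separated the lines depended on the tool and on single pools. With edgeR's quasi-likelihood test (2 against 3 pools, Benjamini-Hochberg adjustment over 19995 genes), 36 genes differed (0.18%), 22 higher (0.11%) and 14 lower (0.07%) in 23095, and 2516 had an unadjusted p under 0.05. The actin gene actc1c was higher in 23095, with a log2 difference of 7.74 (SE 0.39; edgeR, adjusted p = 9.49e-05), and krt99 was lower, with one of -2.48 (SE 0.30; edgeR, adjusted p = 0.019). Of the 36, 13 carried clone names, 7 were Metazoa_SRP and 2 had no symbol. DESeq2 called 434 genes, of which 424 were among the 19995 tested by edgeR (2.12%). Of 765 list identifiers tested, 0 were called by edgeR, against 0.18% over all genes, a share too small for this count to set the lists apart. Of the 765, 158 had an unadjusted p under 0.05 in edgeR, against 2516 of all 19995 genes. DESeq2 called 31 of the 765, against 424 of the 19995 (2.12%). Both are larger shares than over all genes, and the lists were chosen with earlier results of these data known. The edgeR count was 918 without 36433 R1, 62 without 36433 R3, 17 without 36433 R2, 10 without 23095 R1 and 18 without 23095 R2. Of the 36 genes, 7 passed in each of these 5 fits, actc1c among them, while krt99 did not without 36433 R2 (adjusted p = 0.0528) or 23095 R1 (adjusted p = 0.115).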

How the data were processed

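RNA from pooled tails was sequenced from a stranded total RNA library with removal of ribosomal RNA, as paired reads of 150 bases, per the labels. Build GRCz11 and the tools cutadapt 1.16, STAR 2.7.2c and DESeq2 1.22.2 are named, per the submitters' processing notes, without saying what each was used for. For the counting tool and the annotation, nothing was given in the sources used here.

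Raw counts per Ensembl gene identifier, whole numbers with no normalization, were deposited by the authors; every row has a count of at least 6 in some library. The deposited tables of comparisons between groups were not used. Symbols came from a table of gene names (21998 of 23617 identifiers; 11429 carry human-style capitals, and 3309 share a symbol with another identifier). Levels are CPM scaled by TMM in edgeR 4.0.16 over the 5 wildtype libraries. Spread is the SD of log2 CPM with a prior count of 2. The lines were compared with edgeR's quasi-likelihood F-test (two-sided, 3 residual degrees of freedom, called at an adjusted p under 0.05). The filter was filterByExpr with a minimum count of 10. The test was run first on simulated counts. Their spread was set smaller than the common within-line coefficient of variation of 21.1% found here, so that run does not vouch for the calls. DESeq2 1.42.0, other scalings, filters and leaving out each pool were alternatives.

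Named genes were the 30 of highest mean, the 20 most and the 10 least variable, the 4 highest of each list (a few without a clear role left out), every hox gene (some genes under these rules are not reported here) and the 10 highest untranslated genes; others were chosen after their values were seen. A ranking per coding length could not be made without lengths. Of 879 list entries, 810 were matched, 437 of them by a human-style symbol. Such a match takes in every identifier with that symbol, so a list can hold a related gene that was not meant. The genes and lists were chosen with earlier results of these data known.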

Additional observations from a re-analysis of the deposited data

Results flagged for a closer look

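In 5 of 40 values compared over the 5 pools (27 list sums and 13 hox group sums), 1 pool lay further from the rest than the gap that chance exceeds in about 1 in 20 groups. The pool was 36433 R1, and it was the highest, in all 5. The brain list stood at 211 CPM there against 150.9 to 157 CPM in the other 4 pools. The pharyngeal arch and ear list stood at 231 CPM against 141 to 165 CPM. Hox paralog group 1 stood at 139.7 CPM against 82.5 to 91.5 CPM, group 2 at 26.8 CPM against 15.3 to 17.9 CPM, and group 3 at 425 CPM against 287 to 302 CPM. The cut was not adjusted for the 40 values looked at. The 5 are not independent, since all come from the same pool and hoxb1a stood in both the brain list and hox group 1.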

How the results depend on the processing

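The 36 genes called between the lines became 39 with DESeq2's size factors, 63 with library totals alone, 63 with no filter on low counts, 94 when all 11 libraries were fitted in 4 groups, and 434 with DESeq2, which called all 36; leaving out 1 pool gave 10 to 918. With the replicate number as a block 18 genes were called. The deviations of same-numbered pools from their line means had r = -0.083 and 0.0031. The pools of line 23095 deviate from their line mean by equal and opposite amounts, so these values are not independent. They cannot decide whether the numbers mark pairs, and the main fit did not use the numbers. The median SD between pools was 0.28 for genes with a mean of at least 1 CPM, and 7 of the 20 most variable genes stayed among the 20 there. Library totals alone moved the median gene of 36433 R1 by 0.12 (log2). Under them 40 muscle genes were higher and 29 cell cycle and 16 tailbud genes lower in 23095 without overlap, anterior hox genes were highest in 36433 R1 for 24 of 25, and the highest pool changed for 7 of 27 lists, among them fin fold, sclerotome, endothelium, pronephros and tailbud. Of 216 list sums under other settings, 194 stayed within 1 SD; the 22 that moved left out the highest member. The cause of these changes was not tested. A ranking per coding length was not run. Before scaling, 1 CPM stands for 14.8 to 17.2 reads, so markers under it cannot be ordered.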
